A study of Mus musculus with 15 samples.

Results

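Wnt signalling genes were followed in cultured mouse adipocytes kept at 31°C. The group was every row of the count table whose symbol names a Wnt ligand, a Frizzled receptor, an Sfrp or Dkk antagonist or an R-spondin, together with Lrp5, Lrp6, Axin1, Axin2, Ctnnb1, Wif1, Wisp1, Wisp2, Lgr4 and Znrf3. This gave 49 genes of 18804, picked by a rule on gene symbols. Of the 49, 38 had enough counts to be tested, and the other 11 reached at most 25 counts in any library.

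The cells were mesenchymal stem cells (MSCs) isolated from the ears of C57BL/6J mice and turned into adipocytes with methylisobutylxanthine, dexamethasone, insulin and, per the sample labels, troglitazone, which all 3 groups received. The study's methods name troglitazone in one section and rosiglitazone, a drug of the same class, in another. Harvest was on day 16 of differentiation, and 5 libraries each were made from cells that had spent 0, 1 or 12 days at 31°C. The day 0 cells stayed at 37°C, the day 1 cells were moved to 31°C on day 15 and the day 12 cells on day 4, so the length of the cool exposure cannot be told apart from the stage at which it began. The sources do not state if replicate libraries represent different mice or different dishes, so the p-values measure the spread between these libraries, which may be technical. Every comparison with day 0 used the same 5 day 0 libraries.

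Wnt proteins are secreted lipid-modified ligands that bind Frizzled receptors and, for the branch that acts through beta-catenin, the co-receptors Lrp5 and Lrp6. Secreted Frizzled-related proteins (Sfrp) and Wif1 bind the ligands, Dkk proteins act on the co-receptors, and R-spondins act through Lgr receptors to keep Znrf3 from removing Frizzled from the cell surface. In the cell, Axin proteins hold the complex that marks beta-catenin, the product of Ctnnb1, for destruction. In mesenchymal progenitors, Wnt signalling through beta-catenin is known to hold back the formation of fat cells, with Wnt10b and Wnt6 among the ligands studied for this.

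Levels are in CPM, for which each library's counts were brought to the same effective size with TMM factors, and fold changes are on the log2 scale. Total counts ranged from 64648178 to 133270973 per library. By total counts, without TMM factors, 0 counts allow a level of up to 0.0225 to 0.0464 CPM, which covers counting error only. Adipocyte markers (11 of 11 in the table) summed to 5830 to 6410 CPM at day 0, 6770 to 7270 at day 1 and 5300 to 5900 at day 12, led by Lpl, Fabp4, Cfd and Adipoq, while Lep and Retn averaged at most 2.11 CPM. At day 12, 6 of them were called lower (Adipoq, Cfd, Cidec, Dgat2, Pparg and Lep) and 2 higher (Fabp4 and Retn), and at day 1, 2 lower (Cidec and Lep) and the same 2 higher. Scaled by total counts instead of TMM, 3 adipocyte markers were lower and 3 higher at day 12. The 6 markers of proliferating cells summed to 50.8 to 61.9 CPM at day 0, 59.4 to 69.8 at day 1 and 153 to 185 at day 12, and all 6 were called higher at day 12 than at day 0. Chondrocyte markers (6 of 7 in the table) summed to 3680 to 4420 CPM at day 0, 3930 to 4080 at day 1 and 1150 to 1250 at day 12, most of it from Comp. At day 12, Comp, Acan and Sox9 were called lower than at day 0. Col9a1 was called higher at both times, and Col2a1, at 149 CPM at day 0 and 182 at day 12, was not called. The 7 mesothelial markers summed to 9.9 to 11.4, 12.7 to 15.1 and 29.7 to 43.9 CPM at days 0, 1 and 12, most of it at day 12 from Msln. Only Msln was called higher at day 12 than at day 0. Krt8, Krt19 and Lrrn4 were not called there, and Wt1, Upk3b and Upk1b averaged at most 0.022 CPM. Markers of stromal progenitors, 10 of 10 in the table, summed to 1620 to 1690, 1610 to 1700 and 1400 to 1410 CPM. Smooth muscle and myofibroblast markers (6 of 6) summed to 392 to 448, 497 to 661 and 425 to 542 CPM, and osteoblast markers (6 of 6) to 255 to 308, 294 to 337 and 224 to 268 CPM. Most of the smooth muscle sum was Acta2, at means of 285, 414 and 356 CPM. Of that list, Cnn1, Myh11 and Des were called lower at day 12 than at day 0 and none higher. Keratinocyte markers (5 of 5) summed to 47.9 to 55, 20.6 to 23.1 and 58.1 to 66.3 CPM, nearly all of it Trp63, which was called lower at day 1, while Krt5, Krt14 and Krt1 averaged at most 0.024 CPM. Leukocyte markers (4 of 6) summed to 7.46 to 10.1, 10.7 to 13.9 and 7.24 to 8.11 CPM, mostly Cd68, which was not called against day 0. Csf1r was called higher at both times and Lyz2 at day 12, while Ptprc was at most 0.0288 CPM on average. Markers of Schwann cells and melanocytes (5 of 5) summed to at most 4.39 CPM in any library, with Sox10 at 0.0118 CPM or less on average. Endothelial markers (5 of 5) summed to at most 1.52 CPM, with Pecam1 and Kdr called higher at day 12 and Cdh5 at 0.0386 CPM or less, and those of skeletal muscle (4 of 5) to at most 0.398 CPM. The part of these markers in the results below was not tested, and in such bulk samples fewer cells of a type and less RNA per cell cannot be told apart.

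At day 1, 3 of the 38 tested members were called higher than at day 0 (Axin1, Fzd6 and Wnt11) and 7 lower (Rspo2, Sfrp2, Sfrp4, Wisp1, Wisp2, Wnt7b and Wnt9a). A call needed a Benjamini-Hochberg adjusted p under 0.05 over all 14293 tested genes in edgeR's quasi-likelihood test and a fold change over 1.5, which is 0.585 on the log2 scale. The members' shares were 7.89% higher and 18.4% lower, against 7.71% and 13.4% of all tested genes, which is close to the background for the higher calls and somewhat above it for the lower ones. The median log2 fold change was −0.18 over the members and −0.0088 over all tested genes.

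At day 12, 5 members were called higher than at day 0 (Dkk2, Fzd3, Fzd5, Fzd6 and Sfrp2) and 9 lower (Fzd4, Fzd9, Rspo1, Rspo2, Sfrp4, Wnt11, Wnt16, Wnt6 and Wnt7b). These are 13.2% and 23.7% of the tested members, against 13.0% and 16.2% of all tested genes, again close to the background for the higher calls and above it for the lower ones. The median was −0.053 over the members and 0.012 over all tested genes. Scaling by total counts instead of TMM shifted the median of all genes at day 12 to 0.205 and moved the split of all calls from 1852 higher and 2320 lower to 2982 and 1668, and that of the members to 9 higher and 9 lower. Between day 12 and day 1, 5 members were called higher at day 12 (Dkk2, Fzd2, Fzd3, Sfrp2 and Wnt9a) and 9 lower (Fzd4, Fzd9, Lgr4, Rspo1, Sfrp4, Wnt11, Wnt16, Wnt6 and Wnt7b), which is 13.2% and 23.7% of the tested members where 10.6% and 8.53% of all tested genes were called. With total counts the members' split in that comparison was 11 higher and 8 lower, and that of all genes moved from 1510 and 1219 to 2248 and 843.

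In all, 20 members were called in at least 1 comparison and 18 in none. These counts and those by pattern below are not set against all tested genes, so whether they are unusual was not tested. Rspo2, Sfrp4 and Wnt7b were lower at both days and Fzd6 was higher at both. Sfrp2 was lower after 1 day but higher after 12 days, and Wnt11 moved the other way at each time. A further 4 members were called at day 1 but not at day 12 against day 0, and 8 at day 12 but not at day 1.

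**Figure D1:**
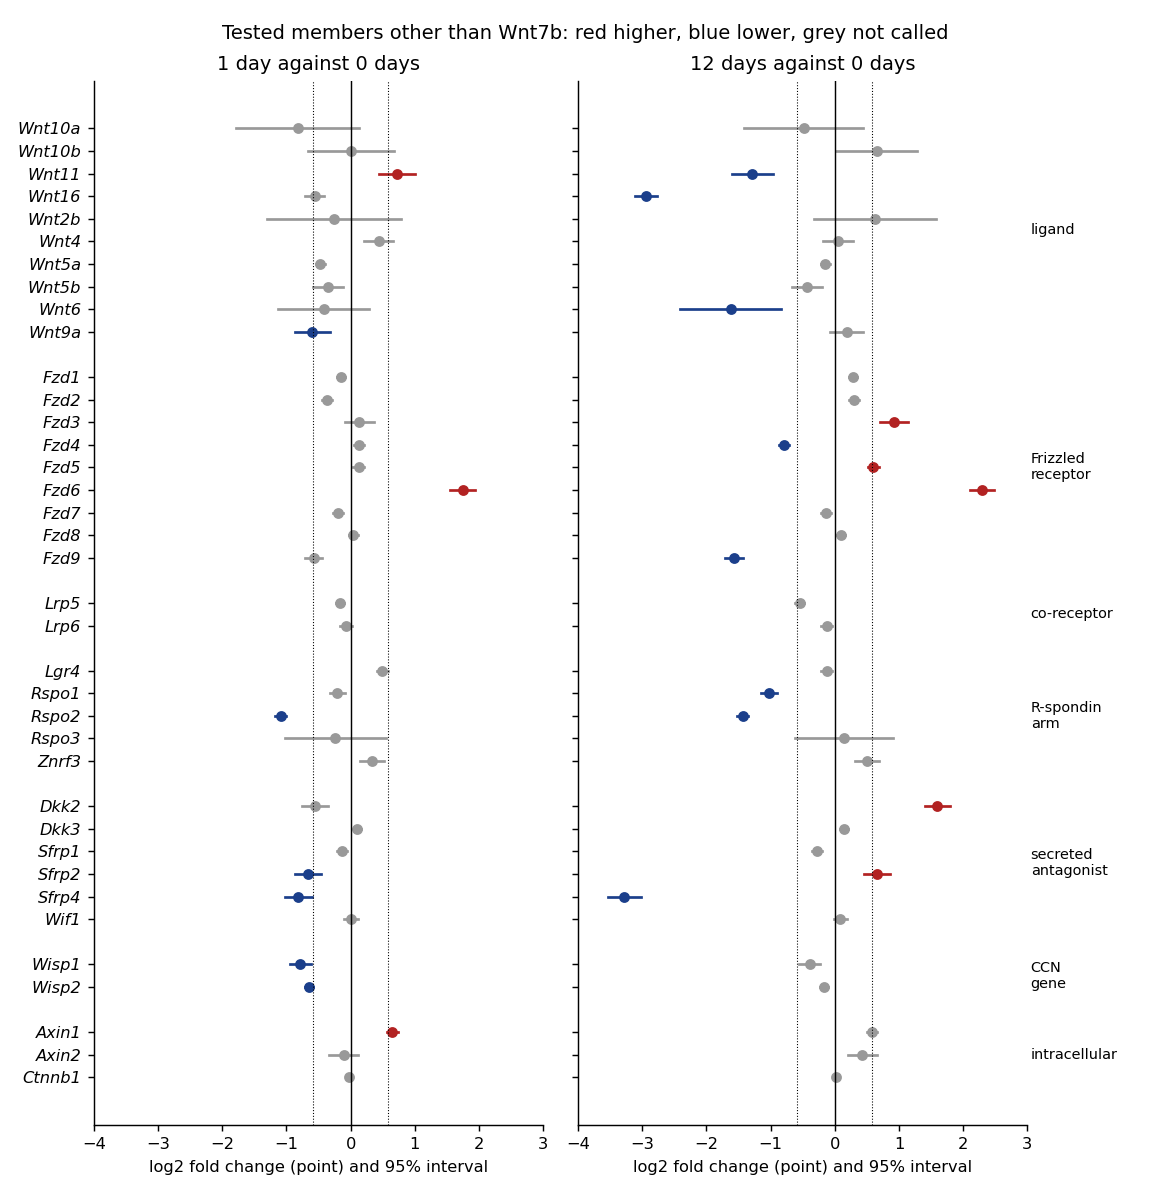
The log2 fold change of 37 tested members against day 0 is plotted (point) with its 95% interval (line) at 1 day (left) and 12 days (right) at 31°C, grouped by role, with dotted lines at the fold change limit and colours for members called higher (red), lower (blue) or not called (grey). Fzd6 stood farthest to the right in both panels, and Sfrp4 and Wnt16 farthest to the left at day 12. Wnt7b, with 1 count in all at day 12, is not drawn.

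The counts by role that follow are small and stand against 7.71% of all tested genes higher and 13.4% lower at day 1, and 13.0% and 16.2% at day 12. Among the 18 Wnt ligands, 11 were tested, of which 1 was called higher and 2 lower after 1 day. After 12 days none was called higher and 4 were lower. The ligands other than Wnt5a and Wnt16 averaged at most 5.15 CPM in any group. Per kilobase of exon, Wnt5a, a ligand best known for signalling that does not pass through beta-catenin, was the most abundant ligand in each group, with means of 9.78, 7.04 and 8.82 CPM per kb at days 0, 1 and 12. It made up 55.6% ± 1.62 (SD, n = 5) of the summed ligand level per kb at day 0, 52.4% ± 1.8 at day 1 and 69.7% ± 0.755 at day 12. The summed level itself was 17.5 to 17.9 CPM per kb at day 0, 12.8 to 13.9 at day 1 and 12.0 to 13.1 at day 12, so the day 0 libraries lay above all others. Wnt5a itself was at 76.5 ± 2.27, 55.1 ± 2.12 and 69.0 ± 2.58 CPM and was not called, with a log2 fold change after 1 day of −0.47 (adjusted p = 4.53e-12). Of its exon bases, 4.58% overlap Gm2670 on the opposite strand.

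Wnt16, a ligand studied in bone and joints, showed the largest change among ligands above 1 CPM. Its level was 16.1, 14.7, 17.9, 15.9 and 16.2 CPM in the day 0 libraries. At day 1 it was 11.7, 10.6, 9.44, 12.2 and 10.9 CPM, and at day 12 it was 2.13, 2.28, 1.77, 1.98 and 2.34 CPM. The 3 groups did not overlap. After 12 days the log2 fold change was −2.94 ± 0.081 (SE, adjusted p = 6.89e-20). At day 1 it was −0.56 ± 0.069, just under the fold change limit, and it passed that limit at −0.60 without replicate 2 of day 0, at −0.59 without replicate 1 of day 1 and at −0.60 without replicate 4 of day 1. It also passed with the library number series as a covariate (−0.585) and in the larger series alone (−0.61). Its share of the summed ligand level was 21.1% ± 1.48 at day 0 and 3.81% ± 0.382 at day 12. In the annotation of GRCm38 the gene spans chr6:22288227-22298522 on the plus strand.

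Wnt11, a ligand of the branch that does not need beta-catenin in many settings, moved in opposite directions at the 2 times. It stood at 2.33, 2.15, 2.42, 1.99 and 2.15 CPM at day 0. The day 1 libraries held 3.97, 3.54, 3.82, 3.84 and 3.1 CPM, and those of day 12 held 0.631, 1.39, 1.02, 0.784 and 0.755 CPM. Every day 1 library was above, and every day 12 library below, all day 0 libraries. On the log2 scale it changed by 0.72 ± 0.14 after 1 day (adjusted p = 5.98e-05) and by −1.28 ± 0.16 after 12 days (adjusted p = 6.49e-08), and the 2 times differed by −2.0 ± 0.15. The gene lies at chr7:98835112-98855195 on the plus strand, and 8.8% of its exon bases overlap Gm8398 on the opposite strand.

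Wnt9a was at 2.2, 2.17, 1.56, 2.02 and 2.04 CPM at day 0, and at 1.38, 1.21, 1.24, 1.16 and 1.59 CPM at day 1. It was at 2.46, 2.03, 2.61, 2.27 and 2.01 CPM at day 12. The day 0 and day 1 ranges overlapped at replicate 3 of day 0 and replicate 5 of day 1. Against day 0 the change after 1 day was −0.60 ± 0.13 (log2, adjusted p = 0.000265), barely past the limit, and it was not called without replicate 1 of day 0 (−0.56), replicate 2 of day 0 (−0.57), or replicate 2 (−0.57), 3 (−0.57) or 4 (−0.56) of day 1, nor with scaling by total counts (−0.58). Day 12 was higher than day 1 by 0.78 ± 0.13 (adjusted p = 1.25e-05).

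The ligands Wnt7b and Wnt6 were called at very low counts. Wnt7b had 32, 27, 17, 10 and 13 counts in the day 0 libraries, 10, 0, 3, 2 and 3 at day 1, and 0, 0, 0, 0 and 1 at day 12. Scaled for library size, the summed level at day 12 was 0.0118 times that at day 0, with an exact 95% counting interval of 0.000296 to 0.0673, and the level at day 1 was 0.219 times that at day 0 (0.124 to 0.364). The call at day 12 rests on 99 counts against 1, and replicate 1 held 10 of the 18 counts at day 1. Without it the fitted log2 fold change at day 1 was −2.98 instead of −2.13. Of the exon bases, 6.61% overlap AU022754 on the opposite strand. Wnt6, a ligand known to hold back fat cell formation, was at 0.309 ± 0.137, 0.228 ± 0.0522 and 0.0973 ± 0.0439 CPM in the groups of 0, 1 and 12 days, which is −1.62 ± 0.38 on the log2 scale against day 0 (adjusted p = 0.000502).

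The other tested ligands were not called. Wnt4 was at 2.46 ± 0.337, 3.34 ± 0.413 and 2.55 ± 0.165 CPM at days 0, 1 and 12. Wnt5b was at 5.15 ± 0.645, 4.01 ± 0.667 and 3.82 ± 0.491 CPM. Wnt10a was at 0.347 ± 0.15, 0.197 ± 0.1 and 0.243 ± 0.151 CPM. It was called at day 1 without replicate 3 of day 0, with a log2 fold change of −1.04. Wnt10b, the ligand most studied as a brake on fat cell formation, was at 0.237 ± 0.0962, 0.241 ± 0.0465 and 0.373 ± 0.0775 CPM. Its log2 fold change at day 12 was 0.65, with a 95% interval of 0.020 to 1.28 and an adjusted p of 0.0566. It was called without replicate 1 (0.79) or 4 (0.79) of day 0 or replicate 4 of day 12 (0.77), and with total counts (0.85). Wnt2b was at 0.0982 ± 0.0495, 0.0838 ± 0.0457 and 0.152 ± 0.0651 CPM. The untested ligands reached at most 1 count (Wnt1 and Wnt3), 2 (Wnt7a), 4 (Wnt2, Wnt8b and Wnt9b) and 25 (Wnt8a) in any library. Wnt8a had 5, 2, 8, 1 and 1 counts at day 0, 5, 1, 0, 2 and 1 at day 1, and 2, 21, 15, 13 and 25 at day 12, so all but 1 of the day 12 libraries were above all others. It entered the test and was called at day 12, against both other groups, with no filter, in the larger library number series alone and when any library other than replicates 2 to 5 of day 12 was left out. With no filter Wnt9b was also called at day 12 against day 1.

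**Figure D2:**
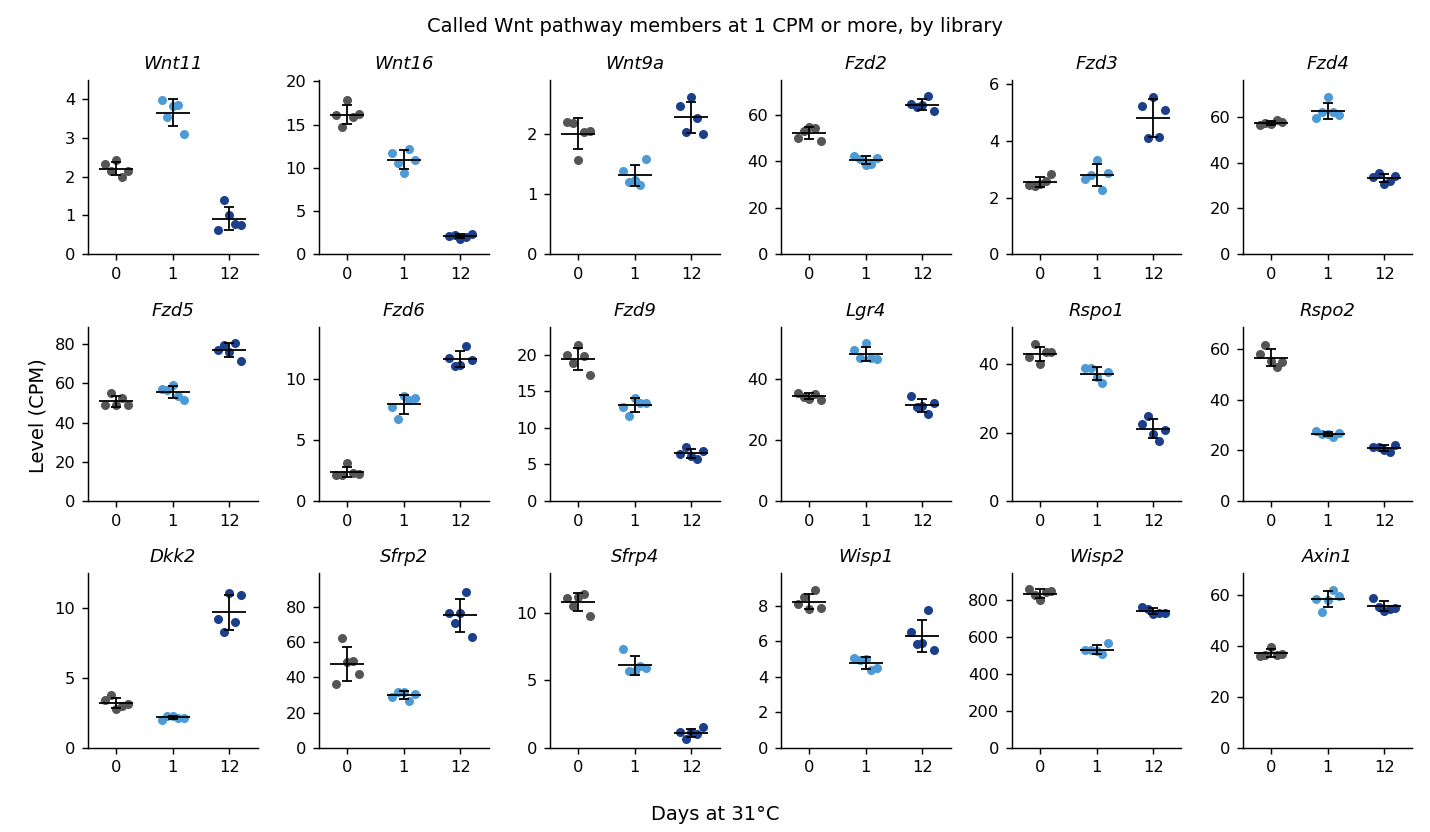
Each panel plots the CPM of 1 called member that averaged at least 1 CPM in a group, against days at 31°C, with a point for each of 5 libraries per group and the mean ± SD as bars on axes that start at 0. For Wnt16, Fzd9, Sfrp4, Rspo2 and Fzd6 the 3 groups do not overlap, while Wnt11 and Sfrp2 move one way at 1 day and the other way at 12 days.

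Promoter sequences are shown for the ligands Wnt11 and Wnt16 and the antagonist Dkk2, which had the largest changes at day 12 among members averaging at least 1 CPM in a group whose RefSeq window lies outside the annotated gene. Each is the 250 bases before the start of transcription in RefSeq on GRCm38.p6, written 5′ to 3′ on the gene's strand, and all 3 are on the plus strand. Capitals mark a match to the TCF/LEF motif CTTTGAT or CTTTGAA, the letters that the DNA-binding partners of beta-catenin prefer, searched on both strands.
Wnt11 chr7:98834862-98835111: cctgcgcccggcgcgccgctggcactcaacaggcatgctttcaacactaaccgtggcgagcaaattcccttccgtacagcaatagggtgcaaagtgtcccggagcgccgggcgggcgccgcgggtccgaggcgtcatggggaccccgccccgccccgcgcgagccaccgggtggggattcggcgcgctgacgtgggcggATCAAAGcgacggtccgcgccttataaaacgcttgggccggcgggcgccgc
Wnt16 chr6:22287977-22288226: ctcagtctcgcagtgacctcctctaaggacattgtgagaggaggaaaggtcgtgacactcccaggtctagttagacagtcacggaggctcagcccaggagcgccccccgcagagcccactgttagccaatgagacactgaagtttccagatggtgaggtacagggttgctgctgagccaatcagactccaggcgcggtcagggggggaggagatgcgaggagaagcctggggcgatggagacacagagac
Dkk2 chr3:132085042-132085291: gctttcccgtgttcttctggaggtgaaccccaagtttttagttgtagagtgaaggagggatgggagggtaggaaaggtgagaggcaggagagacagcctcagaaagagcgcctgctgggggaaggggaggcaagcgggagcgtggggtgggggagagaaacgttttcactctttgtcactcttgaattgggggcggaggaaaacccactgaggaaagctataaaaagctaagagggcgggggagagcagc

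The Wnt11 promoter shown held 1 match, to CTTTGAT on the minus strand, from 51 to 45 bases before the start, and the other 2 shown held none. A second RefSeq promoter of Wnt11, at chr7:98838595-98838844 inside the gene, held none either. RefSeq entries were found for 30 of the 49 members, with 34 promoters, of which those of Dkk1, Wnt11 and Wnt5b held a match. That is 8.82% of the members' promoters against 7.48% of all 32851 promoters of this length, so a match was about as common in the members as elsewhere. The median GC content was 68.6% in the members' promoters and 52.4% in all. A match is a description of the letters and not evidence of binding.

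Of the 10 Frizzled receptors, 9 were tested. At day 1, 1 was called higher and none lower, and at day 12, 3 were higher and 2 lower. Per kb of exon, Fzd1 was the most abundant in every group (37.8, 34.0 and 46.0 CPM per kb at days 0, 1 and 12), followed by Fzd2 (14.3, 11 and 17.6). At day 0, Fzd7, Fzd4, Fzd9, Fzd8 and Fzd5 came next at means of 8.99 down to 7.34 CPM per kb, with ranges over libraries that overlapped between neighbours. Fzd6 and Fzd3 were the lowest of the tested receptors. At day 12 the receptors of that middle group had spread out, from Fzd5 at 11.1 to Fzd9 at 2.85 CPM per kb. The summed level was 90.7 to 97.1 CPM per kb at day 0, 83.9 to 87.5 at day 1 and had a median of 101 at day 12, where every library was above those of day 1.

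Fzd6, a receptor known for its part in planar cell polarity, had the largest increase of all tested members. Its level was 2.1, 2.16, 3.1, 2.33 and 2.19 CPM at day 0. It was 7.7, 6.68, 8.57, 8.3 and 8.44 CPM at day 1, and 11.7, 11.1, 11.2, 12.7 and 11.6 CPM at day 12. The 3 groups did not overlap, although replicate 3 of day 0 stood above the other day 0 libraries. It rose by 1.74 ± 0.093 after 1 day (log2, adjusted p = 3.54e-14) and by 2.29 ± 0.092 after 12 days (adjusted p = 7.54e-17). Day 12 exceeded day 1 by 0.55 ± 0.084, under the fold change limit, and this was called with total counts (0.72) and in the larger library number series alone (0.60). The gene lies at chr15:39006034-39038188 on the plus strand, and 3.15% of its exon bases overlap Gm26704 on the opposite strand. Even at day 12 it made up only 2.38% ± 0.0898 of the summed Frizzled level per kb, from 0.526% ± 0.0867 at day 0.

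Fzd3, the other receptor best known for planar polarity and axon guidance, was at 2.43, 2.42, 2.47, 2.57 and 2.85 CPM at day 0 and at 2.66, 2.79, 3.33, 2.26 and 2.88 CPM at day 1. At day 12 it was at 5.23, 4.09, 5.54, 4.13 and 5.1 CPM. The day 0 and day 1 libraries overlapped and all day 12 libraries were above them. After 12 days the increase was 0.92 ± 0.11 (log2, adjusted p = 2.78e-08). Fzd5 had 49.1, 54.9, 48.7, 52.3 and 48.9 CPM at day 0, 57.0, 56.4, 59.1, 53.6 and 51.6 CPM at day 1, and 76.9, 79.6, 75.7, 80.7 and 71.5 CPM at day 12. Its increase after 12 days was 0.60 ± 0.041 (log2, adjusted p = 2.38e-12), close to the limit. The call was lost without replicate 3 of day 0 or replicate 4 of day 12, at 0.58 each, and 17.8% of its exon bases overlap Gm38058 on the opposite strand. Fzd2 was at 49.9, 53.1, 54.7, 54.5 and 48.8 CPM at day 0, 42.4, 41.1, 38.5, 39.0 and 41.3 CPM at day 1, and 64.6, 63.6, 64.1, 68.1 and 61.5 CPM at day 12. Its 3 groups did not overlap, and the difference of day 12 from day 1 was 0.67 ± 0.038 (adjusted p = 1.34e-13), while neither time was called against day 0. With total counts Fzd1 (0.61) and Fzd5 (0.64) were also called higher at day 12 than at day 1.

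Fzd9 and Fzd4 fell. Fzd9, a receptor studied in bone formation, was at 20.0, 18.9, 21.3, 19.9 and 17.3 CPM at day 0, with a median of 19.9 CPM. Its libraries were at 12.8, 11.6, 14.1, 13.5 and 13.4 CPM at day 1, and at 6.49, 7.39, 6.23, 5.7 and 6.89 CPM at day 12. After 12 days it had fallen, with a log2 fold change of −1.57 ± 0.068 (adjusted p = 2.77e-16). After 1 day the value was −0.57 ± 0.064, under the limit, and it was called at −0.61 without replicate 5 of day 0, at −0.60 without replicate 3 of day 1, at −0.64 in the larger library number series alone and at −0.59 with a filter of 1 CPM. Fzd4, the receptor that also binds norrin in blood vessels, had 56.3, 57.2, 56.9, 58.5 and 57.7 CPM at day 0, 59.4, 62.1, 68.6, 61.9 and 60.6 CPM at day 1, and 33.6, 35.4, 30.8, 32.0 and 34.1 CPM at day 12. All day 12 libraries were below all others, with a log2 fold change of −0.79 ± 0.039 (adjusted p = 4.62e-15). The tested receptors not called in any comparison with TMM scaling were Fzd1 (159 ± 6.85, 143 ± 4.41 and 193 ± 5.83 CPM at days 0, 1 and 12), Fzd7 (40.7 ± 2.22, 35.6 ± 1.41 and 36.9 ± 0.856) and Fzd8 (44.8 ± 1.88, 46.1 ± 1.38 and 48.0 ± 0.514). Fzd10 reached at most 8 counts and was not tested, though with no filter it was called at day 1.

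**Figure D3:**
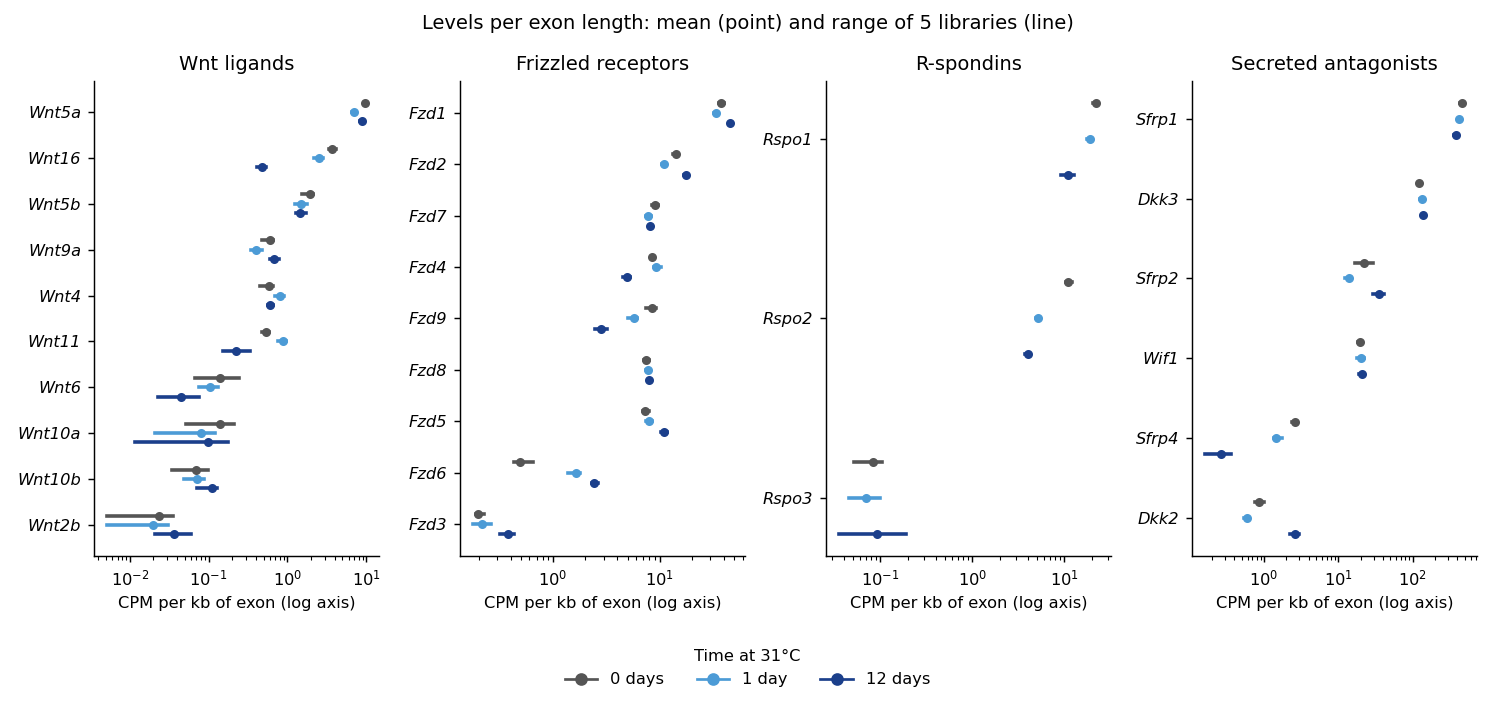
The mean level in CPM per kb of exon (point) and the range of 5 libraries (line) are plotted on log axes for tested ligands, Frizzled receptors, R-spondins and antagonists at 0, 1 and 12 days at 31°C. Sfrp1, Fzd1, Rspo1 and Wnt5a lead their panels in every group, and Sfrp4 and Wnt16 shift farthest to the left at 12 days. Wnt7b, which had libraries at 0, is not drawn.

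Neither co-receptor was called. Lrp5 was at 252 ± 9.65, 225 ± 6.03 and 172 ± 6.25 CPM after 0, 1 and 12 days. Its log2 fold change at day 12 was −0.55 ± 0.031 with an adjusted p of 4.3e-14, so it missed only the fold change limit. Lrp6 was at 164 ± 6.31, 156 ± 12.8 and 150 ± 5.62 CPM, with log2 fold changes of −0.070 and −0.13, the second of which turned to 0.063 with total counts.

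In the R-spondin arm, 5 of 6 members were tested, with none called higher and 1 lower after 1 day, and 2 lower after 12 days. The summed level of the 4 R-spondins was 31.5 to 35.8 CPM per kb at day 0, 22.9 to 25.5 at day 1 and 13.0 to 17.3 at day 12, and the 3 ranges did not overlap. Rspo2 was at 57.9, 61.6, 55.3, 53.0 and 54.8 CPM at day 0, at 27.5, 26.6, 26.6, 25.3 and 26.8 CPM at day 1, and at 21.4, 21.5, 20.1, 19.3 and 22 CPM at day 12. Most of the difference was present after 1 day. The decrease reached −1.09 ± 0.042 after 1 day (log2, adjusted p = 7.08e-17) and −1.44 ± 0.042 after 12 days (adjusted p = 1.85e-19).

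Rspo1 had 42.2, 45.8, 40.0, 43.5 and 43.5 CPM at day 0, 38.8, 38.8, 36.2, 34.6 and 37.9 CPM at day 1, and 22.6, 24.9, 19.7, 17.7 and 20.9 CPM at day 12. All day 1 libraries were below all day 0 libraries, with a log2 fold change of −0.21 ± 0.059 (adjusted p = 0.00338), under the limit, and at day 12 the change was −1.02 ± 0.061 (adjusted p = 1.68e-13). Rspo3 was at 0.256 ± 0.0708, 0.217 ± 0.0613 and 0.287 ± 0.187 CPM and was not called, with 13.1% of its exon bases in Gm48159 on the opposite strand. Rspo4 reached at most 5 counts. Lgr4, a receptor for R-spondins, was at 35.4, 34.1, 33.5, 35.1 and 33.1 CPM at day 0, 49.3, 46.7, 51.7, 46.9 and 46.4 CPM at day 1, and 34.4, 30.8, 31.0, 28.6 and 31.9 CPM at day 12. All day 1 libraries were above all others. Against day 0 the log2 fold change at day 1 was 0.49 ± 0.042, under the limit, and that of day 12 against day 1 was −0.62 ± 0.042 (adjusted p = 3.94e-12), or −0.45 and not called with total counts. Znrf3, the ubiquitin ligase that clears Frizzled from the membrane, was at 3.85 ± 0.427, 4.87 ± 0.436 and 5.47 ± 0.553 CPM. It was not called, at 0.51 ± 0.090 on day 12, except with total counts, at 0.70.

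Of the 8 secreted antagonists, 6 were tested, with none higher and 2 lower after 1 day, and after 12 days 2 were higher and 1 lower. Sfrp1 was at 461, 418 and 380 CPM per kb at days 0, 1 and 12, and the next member in order at days 0 and 1, Wisp2, was slightly above it at day 12 (435, 277 and 386 CPM per kb, with library ranges that overlapped those of Sfrp1 at days 0 and 12). Sfrp1 made up 73.1% ± 1.42, 71.3% ± 1.04 and 66.1% ± 0.985 of the summed antagonist level. Its level of 2020 ± 135, 1830 ± 47.9 and 1660 ± 61.2 CPM gave log2 fold changes of −0.14 and −0.28, and it was not called. Dkk3, a Dkk family member that does not act on the co-receptors as the others do, came next at 414 ± 9.91, 444 ± 16.9 and 457 ± 4.98 CPM. Wif1 was at 48.1 ± 2.54, 48.4 ± 4.29 and 51.0 ± 3.26 CPM, and neither gene was called.

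Sfrp4 showed the largest decrease among members above 1 CPM. It was at 11.1, 10.5, 11.2, 11.4 and 9.82 CPM at day 0, at 7.38, 5.69, 5.67, 6.07 and 5.93 CPM at day 1, and at 1.15, 0.668, 1.14, 1.03 and 1.52 CPM at day 12. The groups did not overlap and replicate 1 of day 1 stood above the other day 1 libraries. Relative to day 0 the log2 fold change was −0.82 ± 0.10 after 1 day (adjusted p = 1.26e-07) and −3.28 ± 0.12 after 12 days (adjusted p = 1.75e-17). The gene is at chr13:19623104-19632994 on the plus strand.

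Dkk2 was the antagonist with the largest increase. Its level was 3.4, 3.76, 2.81, 2.97 and 3.13 CPM at day 0, 2.01, 2.29, 2.31, 2.15 and 2.17 CPM at day 1, and 9.24, 8.27, 11.1, 9.04 and 10.9 CPM at day 12. Every day 1 library was below, and every day 12 library above, all day 0 libraries. After 12 days the increase was 1.60 ± 0.091 (log2, adjusted p = 6.9e-14). After 1 day the value was −0.56 ± 0.10 (adjusted p = 2.68e-05), under the limit, and it was called at −0.60 without replicate 3 of day 0. The gene lies at chr3:132085292-132180304 on the plus strand.

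Sfrp2 was at 36.2, 62.5, 48.9, 49.2 and 42.0 CPM at day 0, the widest spread of the abundant members. It was at 29.1, 31.8, 31.6, 26.8 and 30.8 CPM at day 1 and at 76.8, 70.9, 76.6, 88.8 and 63.2 CPM at day 12. No day 1 library reached the lowest day 0 library, and the lowest day 12 library was just above the highest day 0 library. It fell after 1 day, with a log2 fold change of −0.67 ± 0.10 (adjusted p = 2.14e-06), and rose after 12 days, with 0.66 ± 0.097 (adjusted p = 1.49e-06). The call at day 1 was lost without replicate 2 of day 0 (−0.55), and that at day 12 without replicate 1 of day 0 (0.57). Day 12 was above day 1 by 1.32 ± 0.10 (adjusted p = 2.77e-11), which no left-out library changed. Of its exon bases, 16.1% overlap Gm26771 on the opposite strand, whose reads could be included. Dkk1 and Sfrp5 reached at most 14 and 15 counts and were not tested, though without replicate 4 of day 1, Dkk1 was called at day 12 against day 1.

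The CCN genes Wisp1 and Wisp2, named Ccn4 and Ccn5 in the annotation, encode secreted matrix proteins, Wisp1 being a target of Wnt signalling. Both were called lower at day 1 and neither at day 12. Wisp2 was at 860, 829, 802, 847 and 849 CPM at day 0, at 533, 529, 524, 512 and 570 CPM at day 1, and at 763, 755, 726, 734 and 734 CPM at day 12. The 3 groups did not overlap. After 1 day the log2 fold change was −0.65 ± 0.029 (adjusted p = 1.2e-15), and after 12 days −0.17 ± 0.029, the latter turning to 0.019 with total counts. Day 12 against day 1 was at 0.48, and 0.65 and called with total counts. Wisp1 was at 8.14, 8.51, 7.83, 8.89 and 7.9 CPM at day 0, at 5.08, 4.97, 5.01, 4.39 and 4.49 CPM at day 1, and at 6.52, 5.85, 5.89, 7.8 and 5.53 CPM at day 12. Its log2 fold change after 1 day was −0.78 ± 0.081 (adjusted p = 5.99e-09), and it lay between the other groups at day 12, at −0.39 ± 0.079.

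Of the intracellular members, Ctnnb1 was at 607 ± 7.33, 597 ± 5.99 and 616 ± 6.17 CPM at days 0, 1 and 12. Its log2 fold change was −0.023 at day 1, with a 95% interval of −0.068 to 0.022, and 0.020 at day 12 (−0.025 to 0.065), so the intervals exclude a change of the size of the fold limit. Of its exon bases, 15.1% overlap Ulk4 on the opposite strand or Mir7090. Axin1 was at 36.1, 36.6, 39.8, 36.7 and 37.1 CPM at day 0, at 58.4, 53.5, 58.3, 62.3 and 59.8 CPM at day 1, and at 59.0, 55.4, 54.0, 54.6 and 55.2 CPM at day 12. Day 0 lay below both other groups, which overlapped. It was higher after 1 day by 0.65 ± 0.038 (log2, adjusted p = 1.81e-13), and the value after 12 days was 0.58 ± 0.038, the latter just under the limit and called without replicate 3 of day 0 (0.61), without replicate 3 (0.59) or 4 (0.59) of day 12 and with total counts (0.77). Axin2, a negative regulator that is also the most used target gene of the pathway, was at 3.26 ± 0.475, 3.03 ± 0.416 and 4.38 ± 0.468 CPM. It was not called, with log2 fold changes of −0.11 at day 1 and 0.43 ± 0.11 at day 12 (adjusted p = 0.00106), or 0.62 and called with total counts. Against day 1, day 12 was at 0.54 ± 0.11, which was called at 0.62 without replicate 4 of day 1, at 0.71 with total counts and at 0.63 in the larger of the library number series described at the end. Of its exon bases, 3.8% overlap Gm11670 on the opposite strand.

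Other genes of the pathway were taken from 4 lists, which share some genes, and their counts stand against the same shares of all tested genes, 7.71% higher and 13.4% lower at day 1 and 13.0% and 16.2% at day 12. Among receptor partners and genes of Wnt secretion (23 of 27 tested), 1 was called higher and 1 lower after 1 day. After 12 days the calls were 4 higher and 3 lower, with a median log2 fold change of 0.079. Among those averaging at least 1 CPM in a group, the 3 with the largest called change at day 12 were Lgr6, another R-spondin receptor (5.63 ± 0.565, 5.65 ± 0.74 and 2.62 ± 0.488 CPM, −1.10 ± 0.11), Apcdd1, a membrane inhibitor of Wnt signalling (22.5 ± 1.31, 18.4 ± 0.82 and 11.4 ± 1.16 CPM, −0.98 ± 0.058), and Vangl2, a planar polarity protein (4.33 ± 0.58, 6.4 ± 0.721 and 7.35 ± 0.81 CPM, 0.76 ± 0.096). In the cytoplasmic relay (21 of 22 tested), none was called after 1 day, and after 12 days the calls were 3 higher and 1 lower, with a median of 0.20. At the same level limit those were led by Nkd2, an inhibitor acting on Dishevelled (6.4 ± 0.536, 7.22 ± 0.556 and 14.7 ± 2.14 CPM, 1.19 ± 0.084), Frat2, which binds the kinase Gsk3 (1.09 ± 0.173, 1.29 ± 0.0606 and 2.32 ± 0.253 CPM, 1.10 ± 0.13), and Cxxc5 (48.9 ± 1.99, 33.0 ± 1.11 and 29.0 ± 0.695 CPM, −0.76 ± 0.034). With total counts the day 12 calls were 8 higher and 2 lower in the first list and 6 higher and none lower in the second. 

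Of the nuclear partners of beta-catenin (17 of 17 tested), 2 were called higher and 2 lower after 1 day, and after 12 days 4 were higher and 1 lower, with a median of −0.061. Lef1, a transcription factor through which beta-catenin acts, was at 9.86 ± 0.991, 5.05 ± 0.369 and 2.98 ± 0.14 CPM and was lower at both times, with log2 fold changes of −0.97 ± 0.075 and −1.72 ± 0.078 (adjusted p = 7.6e-16 at day 12). Tcf7, of the same family, was at 3.37 ± 0.37, 5.4 ± 0.485 and 5.58 ± 0.503 CPM and was higher at both, by 0.68 ± 0.090 and 0.73 ± 0.090. Tle4, a co-repressor, was at 1.1 ± 0.283, 1.99 ± 0.346 and 2.86 ± 0.22 CPM and rose by 0.87 ± 0.16 and 1.39 ± 0.15. Of the widely used target genes (11 of 14 tested), 1 was called higher and 1 lower after 1 day, and after 12 days 7 were higher and 2 lower, with medians of −0.11 and 0.68. The higher genes at day 12 were Tnfrsf19, Lgr5, Nkd2, Myc, Tcf7, Ccnd1 and Nkd1, the lower ones Apcdd1 and Lef1. Of these, Tnfrsf19, Lgr5 and Nkd1 averaged under 1 CPM in every group. The day 12 counts were the same with total counts, and 6 higher and 2 lower with RLE factors, which also gave 2 instead of 3 higher in the cytoplasmic relay. Myc and Ccnd1 are also genes of proliferating cells, whose markers were higher in the same libraries.

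**Figure D4:**
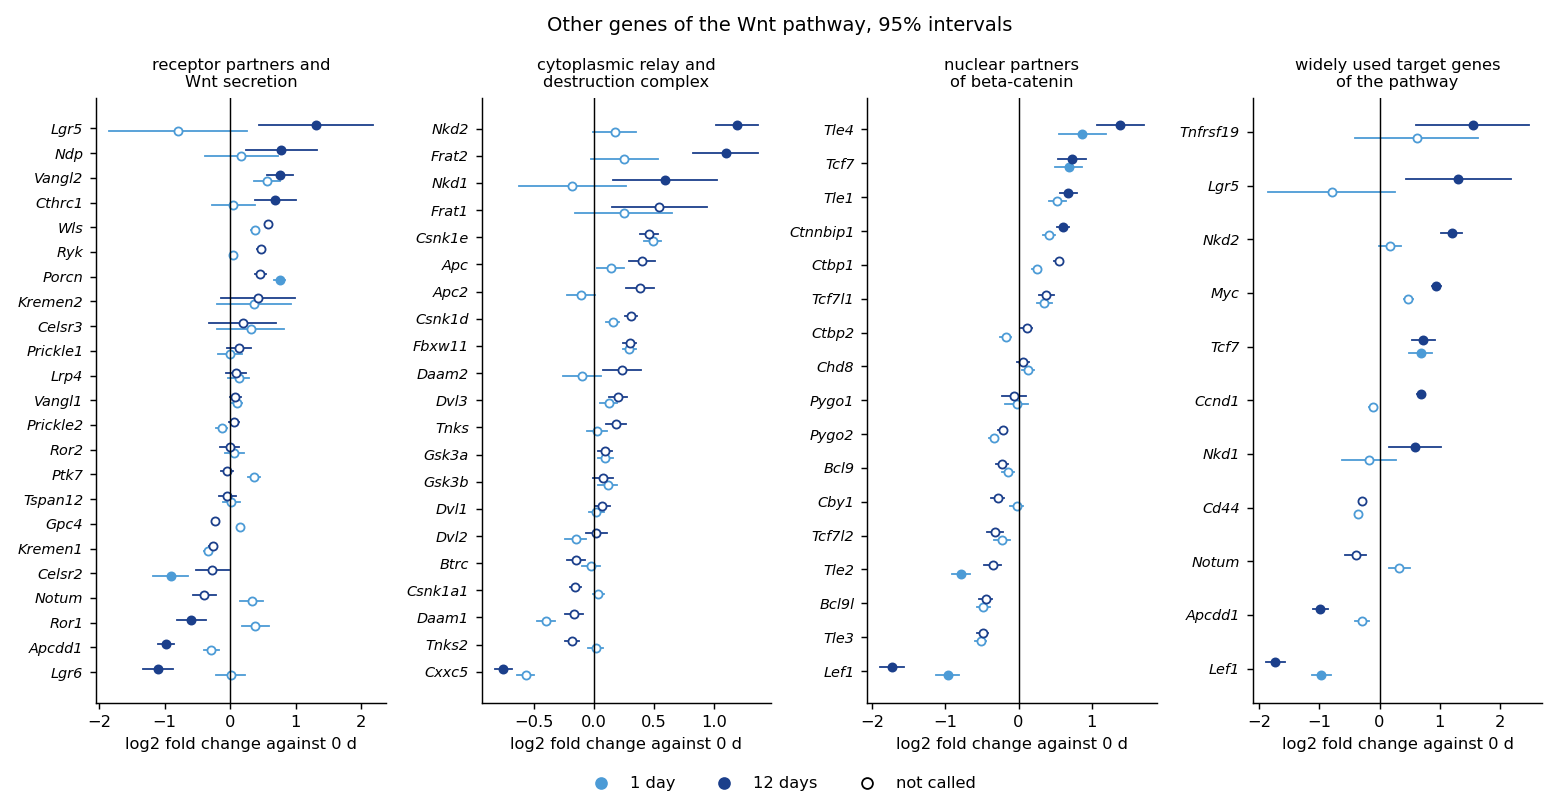
The log2 fold change against day 0 is plotted with its 95% interval for the tested genes of 4 lists of other pathway genes at 1 day (light blue) and 12 days (dark blue), with open points for genes not called. Lef1 is farthest to the left of its panels at 12 days and Lgr5, Nkd2, Tle4 and Tnfrsf19 are at the top of theirs.

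The libraries carried numbers of 2 series, with 4, 3 and 4 of the day 0, 1 and 12 libraries in the larger one and 1, 2 and 1 in the other. What the series stand for was not stated. Within the larger series alone the member calls had the same direction, and 8 members were higher at day 12 than at day 1 instead of 5. The members added were Axin2, Fzd6 and Wnt8a. This count is not set against all tested genes in the same libraries.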

How the data were processed

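RNA-seq libraries of 15 samples were assigned to groups by their labels. Per the labels and the study's methods, the authors checked reads with FastQC, aligned them to mm10 with TopHat2 2.0.13 and Bowtie2 2.2.1, and counted reads per gene with HTSeq. The deposited raw counts were used here. Strandedness was not stated, so genes whose exons overlap a member's are named beside it. The authors' deposited regularized log2 values and DESeq2 tables of fold changes against day 0 were not used.

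Genes were kept with filterByExpr (minimum count 10), scaled by TMM and tested with the quasi-likelihood test of edgeR 4.0.16 (R 4.3.3), with all 15 libraries in 1 fit and no covariate, adjusted over 14293 genes. Standard errors came from the test's F values. The fit was tested on simulated data with 200 changed genes, of which 199 were tested and 191 recovered, with 0 false calls. With 200 changed genes against 1852 higher and 2320 lower at day 12, it does not test the choice of scaling. Exon lengths and positions came from GENCODE on GRCm38, promoters from RefSeq.

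The members and gene lists were chosen with earlier results of these data known. All tested members are named, those called in any comparison and at a mean of at least 1 CPM with the value of every library, and from each pathway list the 3 called genes with the largest change at day 12 at 1 CPM or more. The 7 higher and 2 lower target genes were listed after their values were seen. Alternatives were RLE factors, total counts, no filter, a mean of at least 1 CPM, no fold change limit, DESeq2 1.42.0, the library number series, a replicate block and each library left out.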

Additional observations from a re-analysis of the deposited data

Results flagged for a closer look

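In groups of 5 libraries, a library was noted when its gap to the nearest other library exceeded Dixon's 95% critical value. This held in 11 of the 114 sets of a tested member and a group, where chance alone gives about 1 in 20. At day 0, replicate 3 was apart for Axin1 (39.8 CPM, others 36.1 to 37.1), Fzd6 (3.1, others 2.1 to 2.33) and Wnt9a (1.56, others 2.02 to 2.2), replicate 2 for Ctnnb1 (620 CPM, others 602 to 605) and replicate 5 for Wnt5b (4.04, others 5.22 to 5.67). At day 1, replicate 1 was apart for Sfrp4 (7.38 CPM, others 5.67 to 6.07) and Wnt7b (0.128, others 0 to 0.0326) and replicate 4 for Axin2 (3.75, others 2.69 to 2.94). At day 12, replicate 1 was apart for Axin1 (59.0 CPM, others 54.0 to 55.4) and Lrp6 (160, others 146 to 150), and replicate 5 for Wnt7b (0.0103 CPM, which is 1 count, others 0).

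The effect at day 12 differed from that at day 1 for 14 members, which is the test of day 12 against day 1. Because both effects use the day 0 libraries, the difference between them does not depend on those. On the log2 scale the day 12 effect was greater by 2.15 for Dkk2, 1.32 for Sfrp2, 0.79 for Fzd3, 0.78 for Wnt9a and 0.67 for Fzd2. It was less for Wnt7b (−3.59), Sfrp4 (−2.46), Wnt16 (−2.38), Wnt11 (−2.0), Wnt6 (−1.20), Fzd9 (−1.0), Fzd4 (−0.91), Rspo1 (−0.81) and Lgr4 (−0.62). The adjusted p from edgeR ranged from 1.23e-17 for Wnt16 to 0.0101 for Wnt6. The value of Wnt7b depends on the prior count, since 4 of its day 12 libraries held no count.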

How the results depend on the processing

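Of the members called in the main analysis, 8 of 10 at day 1, 12 of 14 at day 12 and 13 of 14 between the times were called in the same direction under every alternative that could test them, the removal of the fold limit aside. The exceptions, with values in the report, were Sfrp2, Wnt9a, Fzd5 and Lgr4, and no called member changed direction. Without a fold change limit 9 members were higher and 18 lower at day 1 (5049 and 5177 of all genes), 12 and 18 at day 12 (5608 and 5342), and 12 higher at day 12 than at day 1 (4908 higher and 4690 lower among all genes). With total counts 9 members (2982 genes) were higher at day 12 than at day 0, and 11 members were higher than at day 1. The larger library number series alone gave 8 members higher at day 12 than at day 1, a count not set against all genes in that setting.

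Signs turned for uncalled members only. With total counts at day 12 against day 0 these were Fzd7 (0.052), Lgr4 (0.067), Lrp6 (0.063), Wisp2 (0.019) and Wnt5a (0.044), and against day 1 Axin1 (0.10), Lrp6 (0.11), Sfrp1 (0.034) and Wnt5b (0.10, or 0.050 in the larger series). At day 1 Wif1 was at −0.0058 with the filter of 1 CPM. With 1 library left out, the range at day 1 was −0.034 to 0.050 for Wif1, −0.16 to 0.15 for Wnt10b and −0.50 to 0.0027 for Wnt2b. At day 12 it was −0.30 to 0.34 for Rspo3 and −0.030 to 0.094 for Wnt4, and against day 1 it was −0.056 to 0.59 for Rspo3.

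Replicate numbers showed little pairing of the libraries. The deviations of same-numbered libraries correlated at −0.0255 to 0.0436 over 15 pairs, with a median of 0.0195. The 60 other pairs were at −0.0419 to 0.0514, with a median of −0.00179, and the difference was not tested. A replicate block left the member calls at 3 higher and 7 lower, 5 and 9, and 5 and 9. Members under 1 CPM, such as Wnt6 and Wnt7b, rest on few counts and were not tested with the filter of 1 CPM. The cause of these shifts was not tested.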
